A study of Mus musculus with 4 samples.

Results

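The 10 genes described here encode the receptors, ligands and adhesion molecules by which blood vessel cells are usually recognised: the VEGF receptors Kdr, Flt1 and Flt4, the angiopoietin receptor gene Tek with its partner gene Tie1 and the ligand gene Angpt2, the peptide gene Apln with its receptor gene Aplnr, and the adhesion genes Cdh5 and Pecam1. They were chosen by name among the 21495 genes of a single-cell RNA-seq table of the mouse gonad and mesonephros, and all 10 were found in it. For each gene, the UMIs (unique molecular identifiers, 1 for each captured RNA molecule) of all cells of a deposited cell type in a sample were summed and given as CPM, the gene's UMIs scaled to a fixed total of UMIs of those cells.

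The table held 52745 cells in 4 groups of 1 sample each, and each sample pooled several pairs of gonads with their mesonephros. The XY KO samples came from embryos at E11.5 and E11.75 that were made by tetraploid aggregation from G4 embryonic stem cells carrying a homozygous CRISPR/Cas deletion of miR-17~92. Whether both stages came from 1 clone is not stated. The XY control at E11.5 came from the unedited parental G4 line by the same route, and the XX control at E11.5 from mating C57BL/6J males with 129 females. All samples carry the strain label C57BL/6 x 129S4/SvJae. The deletion is not limited to endothelial cells, and all cell types of the KO embryos derive from edited cells. As each group was 1 sample, samples could not be tested against each other. No p-value is given, and every 95% interval covers counting error only.

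The comparison of XY KO with XY control at E11.5 asks which levels differed with the deletion at one stage. In KO at E11.75 over the XY control at E11.5 the deletion and the stage cannot be told apart. In XX over XY control the sex, the way the embryos were made, the sequencing depth and the cell filter all differed and cannot be told apart.

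Endothelial cells line the vessels. VEGF binds the receptor tyrosine kinase VEGFR2, the product of Kdr, which drives their growth and migration, while VEGFR1, from Flt1, acts largely as a sink for VEGF, and VEGFR3, from Flt4, is best known from sprouting and lymphatic vessels. The receptor TIE2, from Tek, with its partner from Tie1, is tuned by angiopoietins and steadies the vessel wall, and APLNR signalling directs veins and sprouts. In the mouse, vessels that reach the XY gonad from the mesonephros during these hours later form the coelomic artery of the testis.

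The deleted cluster makes 6 mature miRNAs of 4 seed families, and they are shown because the KO cells lack them. The sequences are those of RefSeq on GRCm38.p6, chromosome 14, plus strand, 5′ to 3′, with the seed (bases 2 to 8) in capitals. The miRNAs miR-17-5p and miR-20a-5p share a seed, as do miR-19a-3p and miR-19b-3p, while miR-18a-5p and miR-92a-3p have seeds of their own.
mmu-miR-17-5p: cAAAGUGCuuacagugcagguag
mmu-miR-20a-5p: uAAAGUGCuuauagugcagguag
mmu-miR-18a-5p: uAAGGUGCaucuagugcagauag
mmu-miR-19a-3p: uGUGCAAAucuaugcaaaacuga
mmu-miR-19b-3p: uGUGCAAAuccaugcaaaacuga
mmu-miR-92a-3p: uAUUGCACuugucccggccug

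Matches to these seeds were looked for in the longest annotated 3′ UTR of each gene on the transcribed strand. No 8mer (a match to bases 2 to 8 followed by A) was found in the 10 genes, and 12.7% of the 17348 genes of the table with an annotated 3′ UTR held an 8mer. A 7-base match (bases 2 to 8, or bases 2 to 7 followed by A) was found in 6 of the 10 genes, beside 45.2% of the 17348 genes that held a 7-base match or an 8mer. Kdr, Flt1, Flt4 and Cdh5 held neither. The 8 matches follow on mm10, each in capitals with 10 bases to either side, because they are all the matches in these genes. The stretch of Tie1 is coding sequence in another transcript of the gene. A match is a description of the letters, not a site of binding.
Tek, miR-19, chr4:94874257-94874283, plus strand: aaagcatagaTTGCACAggaaggtatg
Tie1, miR-18a, chr4:118478407-118478433, minus strand: catcggagacGCACCTTcacttaccag
Angpt2, miR-92a, chr8:18690759-18690785, minus strand: cagagcactaGTGCAATttctcctgta
Apln, miR-17 and miR-20a, chrX:48026772-48026798, minus strand: cctcaactccCACTTTAtgatgccctt
Apln, miR-19, chrX:48026854-48026880, minus strand: atgcaaaagcTTGCACAaataggccct
Apln, miR-92a, chrX:48027256-48027282, minus strand: gcgccgagatGTGCAATgagacttcgg
Aplnr, miR-19, chr2:85137977-85138003, plus strand: gaggttgagcTTGCACAagtctcttaa
Pecam1, miR-18a, chr11:106654519-106654545, minus strand: cacttaaagcGCACCTTgatcttcctt

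Samples differed in size and depth. The XY control held 23527 cells, KO at E11.5 17057, KO at E11.75 8492 and the XX control 3669. The methods of the study set the cell numbers of the KO samples against the opposite stages, whereas the sample descriptions and the deposited annotation match each other and were followed here. Every KO direction by stage depends on this assignment. Both those methods and the annotation give the later KO stage alone a library without a repeat. The median depth was 3893, 4763, 3921.5 and 15509 UMIs per cell in the same order. Between 1 and 40 cell barcodes were shared by any pair of runs, at most 0.687% of the smaller run, and none was endothelial in both. The host transcript Mir17hg, read at its 3′ end and therefore no measure of the miRNAs, was at 19.8 CPM in the XY and 18.2 CPM in the XX controls, while the KO samples held 156 CPM (E11.5) and 161 CPM (E11.75). The KO labels thus stood apart from both controls in this transcript, and in endothelial cells alone it was at 16.0, 117.5, 133.2 and 9.70 CPM in the order XY control, KO at E11.5, KO at E11.75, XX control.

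The cells that the authors named endothelial numbered 875 in the XY control, 310 in KO at E11.5, 157 in KO at E11.75 and 98 in the XX control. They were 3.72% of cells (exact binomial interval 3.48 to 3.97) in the XY control, 1.82% (1.62 to 2.03) in KO at E11.5, 1.85% (1.57 to 2.16) in KO at E11.75 and 2.67% (2.17 to 3.25) of XX control cells. Both KO shares lay below both control shares. Among cells with at least 3000 UMIs the shares were 3.54% (3.27 to 3.83), 1.81% (1.61 to 2.04), 2.36% (1.99 to 2.77) and 2.22% (1.76 to 2.76) in the same order, so KO at E11.75 was then not below the XX control. The 2 runs of the XY control, which are technical repeats, gave 3.07% and 4.35%, those of KO at E11.5 1.78% and 1.86%, and those of the XX control 2.39% and 2.98%, so over all cells the KO runs stayed below every control run. Shares also depend on dissection and dissociation, whose part was not tested.

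The name fitted its markers. The summed level of 14 endothelial markers chosen apart from the 10 genes was 6723, 7118, 7168 and 6270 CPM in these cells in the order XY control, KO at E11.5, KO at E11.75, XX control, with no marker at 0, and at most 349 CPM in any other cell type. Of other cells, 14 immune markers summed to 40 to 65 CPM in them, and 7 platelet markers to 13 to 20 CPM. Of the immune markers, Ptprc, Spi1 and C1qa were at 0 in both KO samples, whereas Laptm5 was at 22.8, 23.4, 29.5 and 19.8 CPM in the same order, highest in KO at E11.75. Erythroid markers were at 2043, 605, 1140 and 5579 CPM in the same order, lowest in KO at E11.5 and highest in the XX control. The 9 mesenchymal markers were at 279, 160, 432 and 214 CPM and the 7 gonadal somatic markers at 133, 59.5, 169 and 58.2 CPM, and both lists were highest in KO at E11.75. Germ, epithelial and mural markers stayed at or below 100.5 CPM, and adrenal and neural crest markers at or below 6.93 CPM. The part of these levels in the differences between samples was not tested.

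The levels in endothelial cells were as follows, beginning with the VEGF receptors. Kdr, which carries the main growth signal of VEGF, was at 563 CPM (543 to 583; 3085 UMIs) in the XY control, 500 CPM (476 to 525; 1605 UMIs) in KO at E11.5, 799 CPM (748 to 854; 894 UMIs) in KO at E11.75 and 416 CPM (391 to 442; 1029 UMIs) in the XX control. Flt1, the sink for VEGF, was at 329 CPM (314 to 345), 369 CPM (349 to 391), 571 CPM (527 to 617) and 207 CPM (189 to 225) in the same order. Flt4, the receptor gene of VEGF-C, was at 148 CPM (138 to 159), 152 CPM (139 to 167), 183 CPM (159 to 210) and 101 CPM (89.3 to 115). All 3 were highest in KO at E11.75 and lowest in the XX control, and the XY control and KO at E11.5 lay between.

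The angiopoietin receptor gene Tek and its partner gene Tie1 followed the same order of samples at their ends. Tek was at 145 CPM (135 to 155) in the XY control, 163 CPM (149 to 178) in KO at E11.5, 181 CPM (157 to 207) in KO at E11.75 and 104 CPM (92.0 to 118) in the XX control. Tie1, whose product partners TIE2, was at 279 CPM (266 to 294), 226 CPM (210 to 243), 348 CPM (314 to 384) and 188 CPM (171 to 206). The intervals of Tek overlapped between the XY control and KO at E11.5 and between both KO samples, whereas those of Tie1 were apart in all 4 samples. Angpt2, the gene of a TIE2 ligand, had few UMIs in endothelial cells, with 27, 26, 7 and 29 UMIs, or 4.92 CPM (3.24 to 7.16), 8.10 CPM (5.29 to 11.9), 6.26 CPM (2.52 to 12.9) and 11.72 CPM (7.85 to 16.8). These values lay below the Angpt2 level of the mesonephric mesenchyme in every sample (11.71, 12.5, 9.39 and 12.3 CPM). The intervals of KO at E11.75 and the XX control held the mesenchymal value. Over all cells of a sample Angpt2 was at 8.33, 8.67, 5.84 and 9.67 CPM in the same order. As the mesenchyme gave most Angpt2 UMIs, lying below it does not show whether endothelial cells express the gene, which was not tested.

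The apelin genes differed from each other. Aplnr, which encodes the receptor, was at 675 CPM (653 to 697; 3702 UMIs) in the XY control, 662 CPM (634 to 690; 2123 UMIs) in KO at E11.5, 1239 CPM (1174 to 1306; 1385 UMIs) in KO at E11.75 and 333 CPM (311 to 357; 825 UMIs) in the XX control. Apln, the gene of its peptide ligand, was at 14.4 CPM (11.41 to 17.95; 79 UMIs), 32.1 CPM (26.2 to 38.9; 103 UMIs), 23.3 CPM (15.2 to 34.1; 26 UMIs) and 17.4 CPM (12.6 to 23.4; 43 UMIs). The receptor gene stood out in KO at E11.75, while the ligand gene was highest in KO at E11.5 and its interval there overlapped only that of KO at E11.75.

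Of the adhesion genes, Cdh5, which encodes VE-cadherin of the endothelial junction, was at 656 CPM (634 to 678) in the XY control, 681 CPM (652 to 710) in KO at E11.5, 863 CPM (809 to 919) in KO at E11.75 and 552 CPM (523 to 582) in the XX control. Pecam1, which encodes CD31, was at 510 CPM (491 to 529), 639 CPM (611 to 667), 909 CPM (854 to 967) and 364 CPM (340 to 388) in the same order. Pecam1 was apart in all 4 samples, and Cdh5 in all but the XY control and KO at E11.5.

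**Figure D1:**
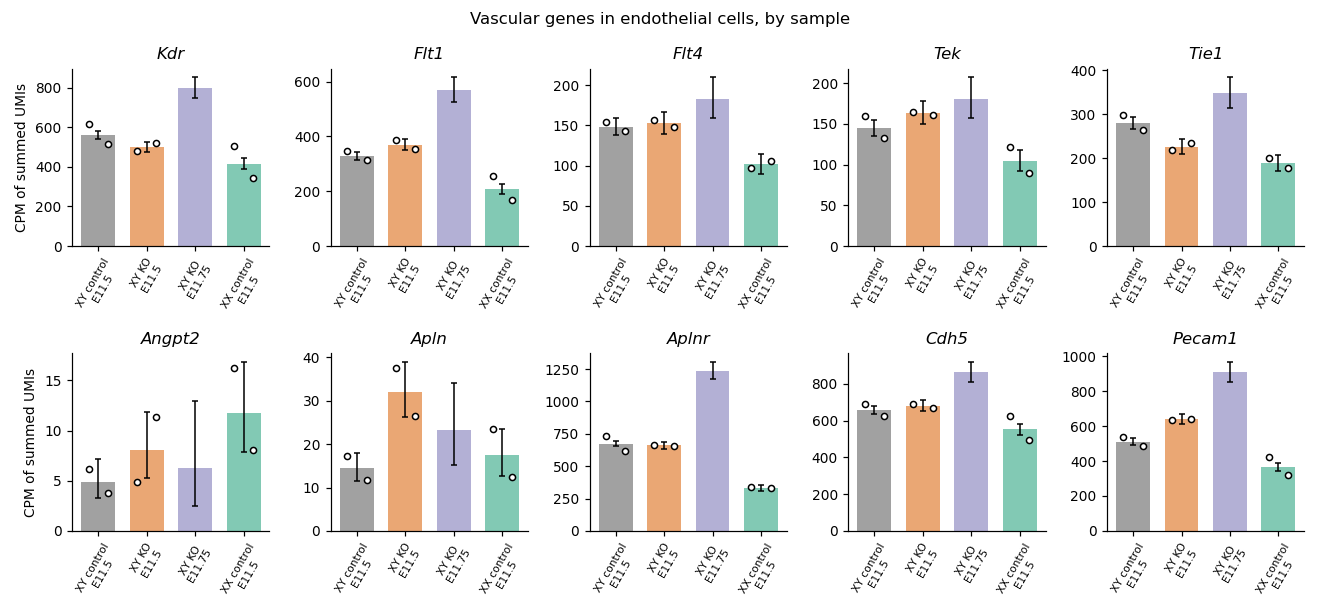
Level of each of the 10 genes in endothelial cells (y axis, CPM of summed UMIs, linear from 0) in the 4 samples (x axis); bars are the pooled value with its 95% counting interval and open points are the single runs of samples with 2 runs. Aplnr reached 1239 CPM in KO at E11.75 beside 333 to 675 CPM elsewhere, and Apln was highest, at 32.1 CPM, in KO at E11.5.

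The runs of a sample show how far a level moved between technical repeats. In the XY control, run 1 was above run 2 for all 10 genes, by 0.11 to 0.27 on the log2 scale for the 8 abundant ones (Kdr 617 and 513 CPM, Aplnr 735 and 621 CPM). The runs of KO at E11.5 lay within 0.13 of each other for those 8 genes. The runs of the XX control lay farther apart for Flt1 (255 and 167 CPM), Kdr (504 and 344 CPM) and Pecam1 (421 and 317 CPM) and close for Aplnr (336 and 331 CPM). For the ligand genes the runs were wide: Apln had 17.3 and 11.80 CPM in the XY control, 37.5 and 26.5 CPM in KO at E11.5 and 23.5 and 12.4 CPM in the XX control. Both runs of KO at E11.5 were above all 4 control runs. These runs hold all XX cells, and the Apln level of the XX control depended on the cell filter, as given below. KO at E11.75 had 1 run, so no such spread is known for it.

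In KO over XY control at E11.5, the receptor and adhesion genes of the endothelium were close to their control level, and Apln was the exception. Apln was 2.23-fold higher, a log2 ratio of 1.15 (0.72 to 1.60) from 103 and 79 UMIs. Pecam1 was higher by a log2 ratio of 0.32 (0.24 to 0.41), Flt1 by 0.17 (0.06 to 0.27) and Tek by 0.17 (0.01 to 0.33), and Tie1 had a log2 ratio of -0.31 (-0.44 to -0.18) and Kdr of -0.17 (-0.26 to -0.08). Each group was 1 sample, so no spread between samples is known against which to hold these ratios. The runs of the XX control, which is not in this comparison, differed by more than these ratios for Pecam1 (0.41), Flt1 (0.60), Kdr (0.55) and Tek (0.44), but not for Tie1 (0.18). The runs of the XY control differed by more for Kdr (0.26) and Tek (0.27) and by less for Pecam1 (0.16), Flt1 (0.13) and Tie1 (0.18). Cdh5 at 0.05 (-0.02 to 0.13), Flt4 at 0.04 (-0.12 to 0.20) and Aplnr at -0.03 (-0.11 to 0.05) had intervals that held 0. Angpt2, at 0.72 (-0.12 to 1.55), had too few UMIs to show a difference of this size.

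A gene was counted as past the limit when its CPM differed by more than 1.5-fold and both samples together held at least 100 UMIs, which 9 of the 10 genes did in every comparison; Angpt2 did not. In KO over XY control at E11.5, 1 of the 9 was past the limit upward (Apln) where 1.38% of the 8532 genes tested were, and 0 downward where 4.51% were. The median log2 ratio of the 9 was 0.05, and that of all tested genes -0.03. Across all settings tried the ratio of Apln stayed between 0.78 and 1.43, but after thinning, or without cells that held immune or platelet UMIs, it no longer had 100 UMIs to be counted.

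At E11.75 the KO endothelium had higher levels of the receptor genes than the XY control at E11.5, but for Flt4, Tek and Tie1 the size depended on the setting. Aplnr was 1.84-fold higher (log2 ratio 0.88, 0.79 to 0.97), Pecam1 1.78-fold (0.83, 0.73 to 0.94) and Flt1 1.73-fold (0.79, 0.66 to 0.92). Apln had a log2 ratio of 0.71 whose interval held 0 (-0.01 to 1.35). Kdr followed with a log2 ratio of 0.51 (0.40 to 0.61), and Cdh5 (0.40), Tek (0.32), Tie1 (0.32) and Flt4 (0.31) were lower in the order, with intervals above 0. That made 4 of 9 past the limit upward (Flt1, Apln, Aplnr and Pecam1) beside 16.0% of the 7927 genes tested, and 0 downward beside 5.65%.

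The E11.75 library as a whole was shifted, and this bears on those ratios. The median log2 ratio of all tested genes was 0.16 and that of the 9 genes 0.51, and all 9 lay above the median gene. Ratios of all genes were also higher with longer 3′ UTRs there (Spearman's rho across genes 0.44, beside -0.13 in KO over XY control at E11.5). The rho was 0.47 in KO at E11.75 over KO at E11.5 and -0.31 in XX over XY control, so other comparisons depended on 3′ UTR length too. With trimmed mean of M values (TMM) factors, 5.85% of genes were past the limit upward and 15.2% downward, the reverse of the split without them, and 2 of the 9 genes were past it upward. All 9 had log2 ratios above 0 with those factors. Mitochondrial genes took 3.801%, 3.68%, 4.92% and 2.48% of endothelial UMIs in the order XY control, KO at E11.5, KO at E11.75, XX control, highest in KO at E11.75 and lowest in the XX control, as were the CPM of all 8 abundant genes. Mesenchymal and gonadal somatic markers were also highest in KO at E11.75, and the part of these values was not tested. The lowest ratios under any setting tried were 0.61 for Aplnr, 0.61 for Pecam1, 0.43 for Flt1 and 0.37 for Apln. For Kdr the lowest was 0.28 and for Cdh5 0.17. The lowest ratios of Flt4 (0.08), Tie1 (0.05) and Tek (0.03) were near 0, so no rise of these genes is read apart from the scaling or thinning used.

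Between the KO samples, E11.75 over E11.5 gave its largest ratio for Aplnr, at 0.90 (0.81 to 1.003). Kdr (0.68, 0.56 to 0.80), Flt1 (0.63, 0.49 to 0.77) and Tie1 (0.62, 0.44 to 0.80) followed, and these 4 of 9 were past the limit upward beside 20.1% of the 6509 genes tested. None of the 9 was past it downward beside 7.82%. Pecam1 (0.51) and Cdh5 (0.34) were higher by less, and the intervals of Tek (0.15, -0.09 to 0.39) and Apln (-0.44, -1.15 to 0.17) held 0. The median of all genes was 0.17 and that of the 9 genes 0.51. With TMM factors 7.10% of genes were past the limit upward and 21.6% downward, and 1 of the 9 genes in each direction. The lowest ratios under any setting tried were 0.62 for Aplnr, 0.39 for Kdr, 0.33 for Tie1, 0.22 for Flt1 (centred by 3′ UTR length) and -0.45 for Tek (thinned cells). Each stage was 1 sample, so the difference in stage and any other difference between these samples cannot be told apart.

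In XX over XY control all the receptor and adhesion genes were lower. Aplnr was at 0.49 of the XY level (log2 ratio -1.02, -1.13 to -0.91) and Flt1 at 0.63 (-0.67, -0.82 to -0.53). The next were Tie1 (-0.57), Flt4 (-0.55), Pecam1 (-0.49), Tek (-0.47), Kdr (-0.44) and Cdh5 (-0.25), each with an interval below 0. Thus 2 of the 9 were past the limit downward beside 11.6% of the 8218 genes tested, and 0 upward beside 0.913%. With TMM factors 1 of the 9, Aplnr, was past it downward beside 5.90% of genes, and 0 upward beside 2.66%, and with median-of-ratios size factors 1 downward beside 4.47% and 0 upward beside 3.38%. The median was -0.49 for the 9 genes and -0.16 for all genes, and 1 of the 9, Apln at 0.28 (-0.30 to 0.82), lay above the median gene. Without run 1 of the XX control 6 of the 8 genes then tested were past the limit downward (16.9% of all genes), without run 2 of the XY control 5 of 8 (12.01%), and with cells thinned to 3000 UMIs 7 of 8 (17.7%). The XX cells were also the deepest, and 69 of the 98 lay within the limits of 30000 UMIs and 7000 genes to which XY cells had been held. With XX cells held to these limits, Apln in XX over XY control had a log2 ratio of 1.08. That is close to its 1.15 in KO over XY control at E11.5, so a higher Apln was not particular to KO under this filter. The 3 comparisons with the XY control share that sample, so their ratios are not independent.

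**Figure D2:**
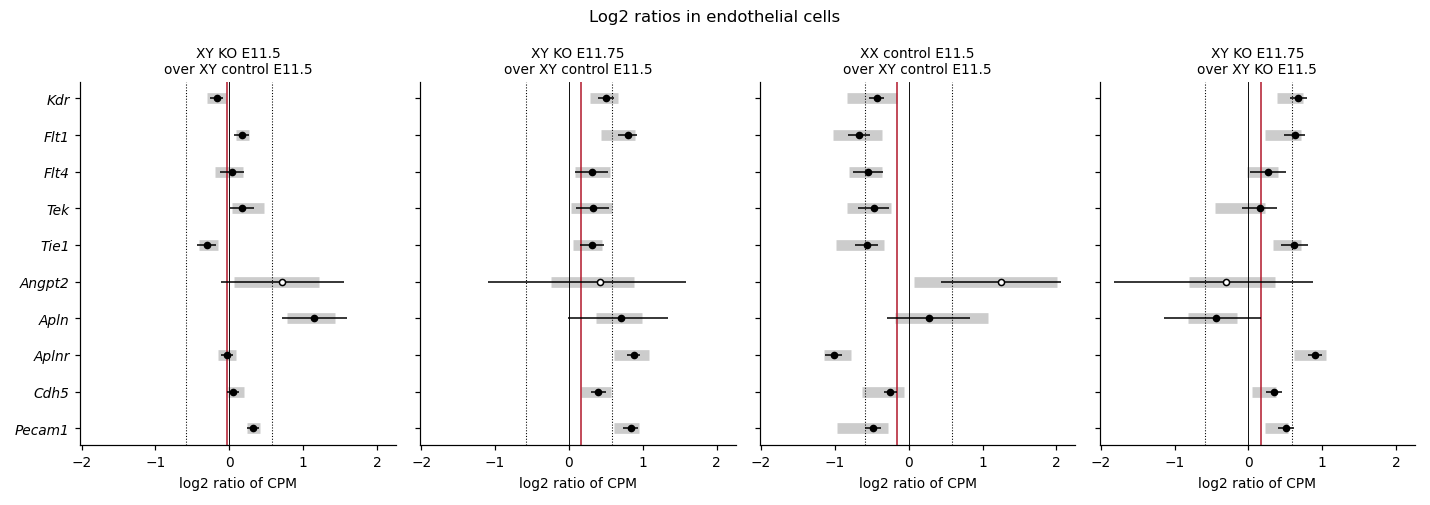
Log2 ratios of CPM in endothelial cells (x axis) for the 10 genes (y axis) in the 4 comparisons; points are the ratios with 95% counting intervals (open for Angpt2, under 100 UMIs), grey bars span the values under all other settings, dotted lines mark 1.5-fold and the red line the median of all tested genes. Apln alone passes the limit in KO over XY control at E11.5 (1.15), and Aplnr lies farthest from 0 among the abundant genes in the other 3 comparisons (0.88, -1.02 and 0.90).

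Detection in single cells was compared after each cell was thinned to 3000 UMIs, which left out 264, 34, 14 and 18 shallower endothelial cells and kept 611, 276, 143 and 80 in the order XY control, KO at E11.5, KO at E11.75, XX control. A UMI of Cdh5 was then present in 80.0%, 88.4%, 90.9% and 75.0% of endothelial cells. For Kdr the shares were 80.4%, 79.3%, 92.3% and 55%, and for Aplnr 71.5%, 75.0%, 87.4% and 48.8%. The XX control was lowest for each of the 3 genes and KO at E11.75 highest. Mesonephric mesenchyme, thinned alike, gives the level that free RNA may set, and there a UMI of Cdh5 was present in 0.941%, 0.615%, 1.06% and 0.470% of cells, and one of Aplnr in 0.768%, 0.435%, 0.617% and 0.352%. For Kdr the mesenchymal shares were higher, at 8.94%, 7.40%, 10.7% and 5.52%, and whether free RNA or RNA of these cells gave them was not tested.

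Apln was seen in few endothelial cells. Its share after thinning was 4.26% (2.80 to 6.17) in the XY control, 7.25% (4.48 to 10.97) in KO at E11.5, 4.90% (1.99 to 9.83) in KO at E11.75 and 2.50% (0.30 to 8.74) of XX control cells, with 0.278%, 0.256%, 0.617% and 0.352% in the mesenchyme. These intervals overlapped, so the higher Apln level of KO at E11.5 was not detectable as a share of cells at this depth. Unthinned, the shares were 7.54%, 21.9%, 12.7% and 18.4%, with median depths of 4796, 8373.5, 5343 and 17632 UMIs per endothelial cell. Angpt2 was present in 1.47%, 2.90%, 2.10% and 2.50% of thinned endothelial cells, and in 3.40%, 3.33%, 2.47% and 3.76% of thinned mesenchymal cells. The endothelial shares rest on 9, 8, 3 and 2 cells, and in 3 of the 4 samples their interval held the mesenchymal share. Unthinned, Angpt2 was present in 2.97%, 7.74%, 4.46% and 18.4% of endothelial and 4.00%, 5.13%, 2.66% and 15.5% of mesenchymal cells, the opposite order in all samples but the XY control, so no order is read from these shares.

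The genes were detected together in the same cells. The median thinned endothelial cell had UMIs of 5 of the 10 genes in the XY control, 5 in KO at E11.5, 6 in KO at E11.75 and 4 in the XX control. At least 3 were found in 91.2%, 98.2%, 97.2% and 71.3% of endothelial cells, beside 0.0530%, 0.0256%, 0.132% and 0.117% of mesenchymal cells. No UMI of any of the 10 was found in 4 of 611 endothelial cells of the XY control, 0 of 276 and 0 of 143 in KO, and 4 of 80 in the XX control.

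Outside the endothelium the genes separated into those nearly confined to it and those that were not. Endothelial cells gave 94.2% to 96.0% of all Aplnr UMIs, 92.4% to 96.2% of Flt1, 89.9% to 94.9% of Cdh5 and 87.8% to 91.3% of Tie1 across the 4 samples, from 2.96% to 5.21% of all UMIs. For Flt4 the share was 76.2% to 89.4%, for Tek 77.1% to 88.7% and for Pecam1 71.0% to 79.6%. Kdr (39.9% to 52.8%), Apln (24.5% to 49.3%) and Angpt2 (3.08% to 4.41%) gave most or much of their UMIs elsewhere. As the cell clusters were made with endothelial genes, this is a description and was not tested.

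**Figure D3:**
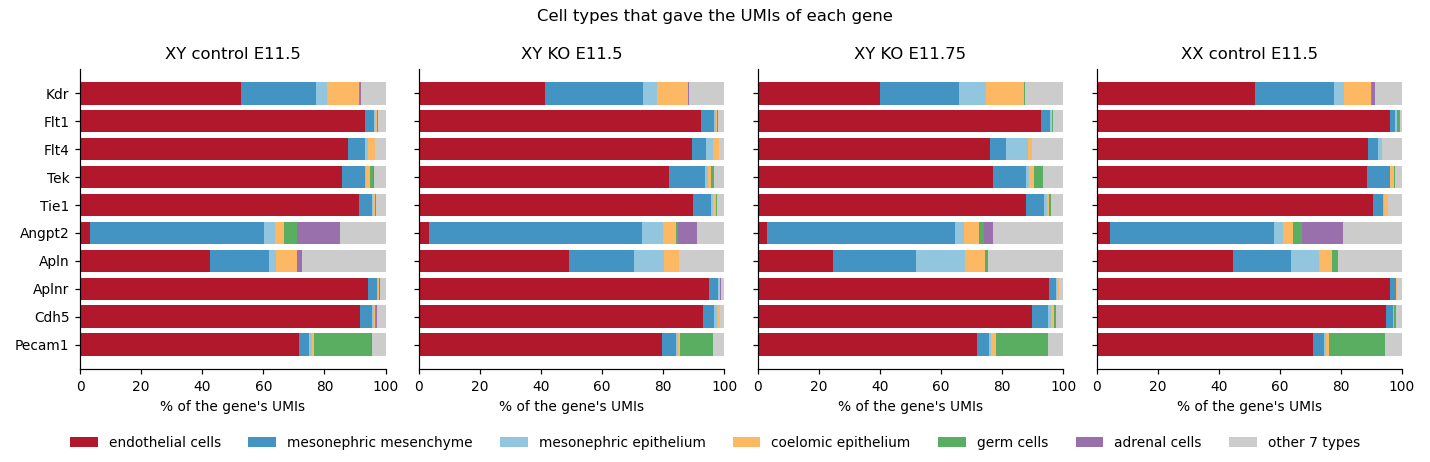
Share of each gene's UMIs (x axis, percent) that came from each cell type, for the 10 genes (y axis) in the 4 samples (panels). Endothelial cells gave 87.8% or more of the UMIs of Flt1, Tie1, Aplnr and Cdh5 in every sample and at most 4.41% of those of Angpt2.

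Endothelial cells had the highest level among all cell types for 9 of the 10 genes in every sample, and Angpt2 was highest in adrenal cells. Adrenal cells held Angpt2 at 90.8 CPM (75.6 to 108; 241 cells) in the XY control, 53.8 CPM (39.8 to 71.2; 127 cells) in KO at E11.5, 105 CPM (38.5 to 229; 8 cells) in KO at E11.75 and 71.9 CPM (57.7 to 88.6; 55 cells) in the XX control. The log2 ratio of KO over XY control at E11.5 was -0.75 (-1.26 to -0.27), with runs at 75.6 and 109 CPM in the control and 60.9 and 48.4 CPM in KO, and the 8 cells of KO at E11.75 allow no comparison. This ratio is not set beside the median of all genes in adrenal cells. Most Angpt2 UMIs came from the far larger mesonephric mesenchyme, where its level depended on the cluster. The cluster named Mesonephros 3 held 21.6, 24.0, 27.1 and 21.4 CPM in the order XY control, KO at E11.5, KO at E11.75, XX control, beside 6.02, 4.64, 2.65 and 7.87 CPM in Mesonephros 1. The intervals of these clusters did not overlap in any sample.

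Kdr was present at a lower level in several cell types that are not endothelial. Coelomic epithelium, the surface layer of the gonad, came second in the XY control at 57.8 CPM (53.3 to 62.5), and held 39.3 CPM in KO at E11.5, 62.8 CPM in KO at E11.75 and 35.9 CPM in the XX control. Mesonephric mesenchyme (33.4 CPM), mesonephric epithelium (33.0 CPM), interstitial progenitors (32.6 CPM) and supporting-like cells (30.8 CPM) followed in the XY control and did not differ from their neighbours in that order beyond counting error. Germ cells were last, at 2.87 CPM.

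For each Cdh5 UMI, coelomic epithelium and mesonephric mesenchyme held more Kdr UMIs than endothelial cells did. Cdh5 UMIs were still found in both, with 22 and 150 in the XY control. Endothelial cells held 0.86, 0.73, 0.93 and 0.75 Kdr UMIs for each Cdh5 UMI in the order XY control, KO at E11.5, KO at E11.75, XX control. In coelomic epithelium the ratio was 28.3, 21.8, 22.9 and 85.5, the last from only 2 Cdh5 UMIs, and in mesonephric mesenchyme 9.53, 13.8, 10.6 and 16.5. Cells without any UMI of Cdh5 or Cldn5 held nearly the same Kdr level, for example 57.4 CPM in coelomic epithelium of the XY control. Few cells outside the endothelium held a Cdh5 UMI, for example 1.32% of mesonephric mesenchyme in the XY control. Leaving them out could thus move the level little, and the part of free RNA was not tested. Within the mesenchyme the cluster named Mesonephros 4 stood out, at 72.9 CPM (63.3 to 83.7), 108 CPM (97.1 to 119), 173 CPM (148 to 201) and 77.2 CPM (61.5 to 95.5).

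Between samples, Kdr in supporting-like cells was higher in KO. These cells, which lie at the junction of gonad and mesonephros and give rise to the rete, held 30.8 CPM (24.6 to 37.9; 87 UMIs) in the XY control, 69.4 CPM (58.8 to 81.3; 153 UMIs) in KO at E11.5, 73.4 CPM (55.3 to 95.6; 55 UMIs) in KO at E11.75 and 19.4 CPM (12.4 to 28.8; 24 UMIs) in the XX control. The runs did not mix, at 30.02 and 31.6 CPM in the XY control, 67.6 and 71.0 CPM in KO at E11.5 and 16.7 and 22.4 CPM in the XX control. The log2 ratio over the XY control was 1.17 (0.79 to 1.57) in KO at E11.5 and 1.26 (0.74 to 1.76) in KO at E11.75, with medians over all genes tested there of -0.09 and 0.11. Cells without a UMI of Cdh5 or Cldn5 held 31.5, 71.5, 74.5 and 20.4 CPM. Supporting-like cells held only 12 Cdh5 UMIs in the XY control and 6 in KO at E11.5, so this step could move the level little. The endothelial markers in supporting-like cells were lower in both KO samples than in the XY control and lowest in the XX control (95.8, 75.3, 65.4 and 50.0 CPM), erythroid markers were at 3742, 1460, 1924 and 1105 CPM, and mesenchymal markers at 483, 696, 707 and 285 CPM, and the part of these marker levels in the Kdr difference was not tested. No rule set beforehand picked this cell type among the 13, and the share of all genes past the limit in it was not counted. Kdr was also higher in both KO samples than in the XY control in the cluster Mesonephros 4 (72.9, 108, 173 and 77.2 CPM in the same order), but not in Mesonephros 1, 2 or 3.

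In the epithelia the order of samples was another. Kdr in coelomic epithelium had a log2 ratio of -0.56 (-0.74 to -0.37) in KO over XY control at E11.5 and 0.12 (-0.09 to 0.33) in KO at E11.75 over XY control, with no median of all genes set beside them. In mesonephric epithelium Kdr was at 33.0, 19.5, 62.9 and 14.6 CPM in the order XY control, KO at E11.5, KO at E11.75, XX control, with a log2 ratio of 1.68 (1.39 to 1.98) between the KO stages, where the median gene was at 0.21. The KO at E11.5 was thus below the XY control in both epithelia and above it in supporting-like cells. Whether these ratios differ between cell types was not tested.

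Pecam1 had a source of its own in germ cells. There it was at 105 CPM (97.1 to 113; 556 cells) in the XY control, 133 CPM (118 to 150; 165 cells) in KO at E11.5, 157 CPM (138 to 178; 152 cells) in KO at E11.75 and 63.4 CPM (55.5 to 72.2; 84 cells) in the XX control. The log2 ratio over the XY control was 0.35 (0.15 to 0.55), 0.58 (0.37 to 0.79) and -0.72 (-0.94 to -0.51), and the samples stood in the same order as for Pecam1 in endothelial cells. These ratios are not set beside the median of all genes in germ cells, so a shift of a whole library may be part of them. Germ cells held 60.8, 137, 40.7 and 32.7 Pecam1 UMIs for each Cdh5 UMI, with only 2 to 12 Cdh5 UMIs per sample. The 14 endothelial markers summed to 75.5, 73.3, 63.5 and 49.8 CPM in germ cells. Immune cells also held Pecam1, at 58.5, 37.3, 43.7 and 11.3 CPM.

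Flt4 outside the endothelium was seen in several cell types. The XY control held 51 UMIs in mesonephric mesenchyme and 19 in coelomic epithelium. Mesonephric epithelium of KO at E11.75 held 19, or 1.9 for each Cdh5 UMI. Another place was the cluster named Mesonephric tubules 2. It held 6 UMIs (3.43 CPM, 1.26 to 7.46) in the XY control, 2 UMIs (1.52 CPM, 0.18 to 5.48) in KO at E11.5, 19 UMIs (16.7 CPM, 10.1 to 26.1; 16 of 186 cells) in KO at E11.75 and 14 UMIs (4.85 CPM, 2.65 to 8.14; 13 of 168 cells) in the XX control. Cdh5 had 3, 2, 0 and 2 UMIs in the same cells. Over all tubule cells there were 0.43, 0.29, 7.67 and 4.67 Flt4 UMIs for each Cdh5 UMI, the last 2 from 3 Cdh5 UMIs each, beside 0.18 to 0.23 in endothelial cells.

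Apln outside the endothelium rested on few UMIs. The mesonephric tubules came next in the XY control, at 3.75 CPM (2.60 to 5.25; 34 UMIs), and in KO at E11.5, at 3.83 CPM (2.43 to 5.75; 23 UMIs). Most of the tubule UMIs lay in the cluster named Mesonephric tubules 3, with 27 of 34 in the XY control, 23 of 23 in KO at E11.5, 9 of 11 in KO at E11.75 and 6 of 8 in the XX control. Its Apln level was 6.15 CPM (4.05 to 8.94), 5.33 CPM (3.38 to 8.003), 7.92 CPM (3.62 to 15.03) and 2.36 CPM (0.87 to 5.14) in that order. In KO at E11.75 mesonephric epithelium was next, at 5.37 CPM (3.13 to 8.60; 17 UMIs). All cells that are not endothelial together held 1.07, 1.22, 2.18 and 0.809 CPM in the order XY control, KO at E11.5, KO at E11.75, XX control, so that the share of Apln UMIs from endothelium was lowest, at 24.5%, in KO at E11.75.

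**Figure D4:**
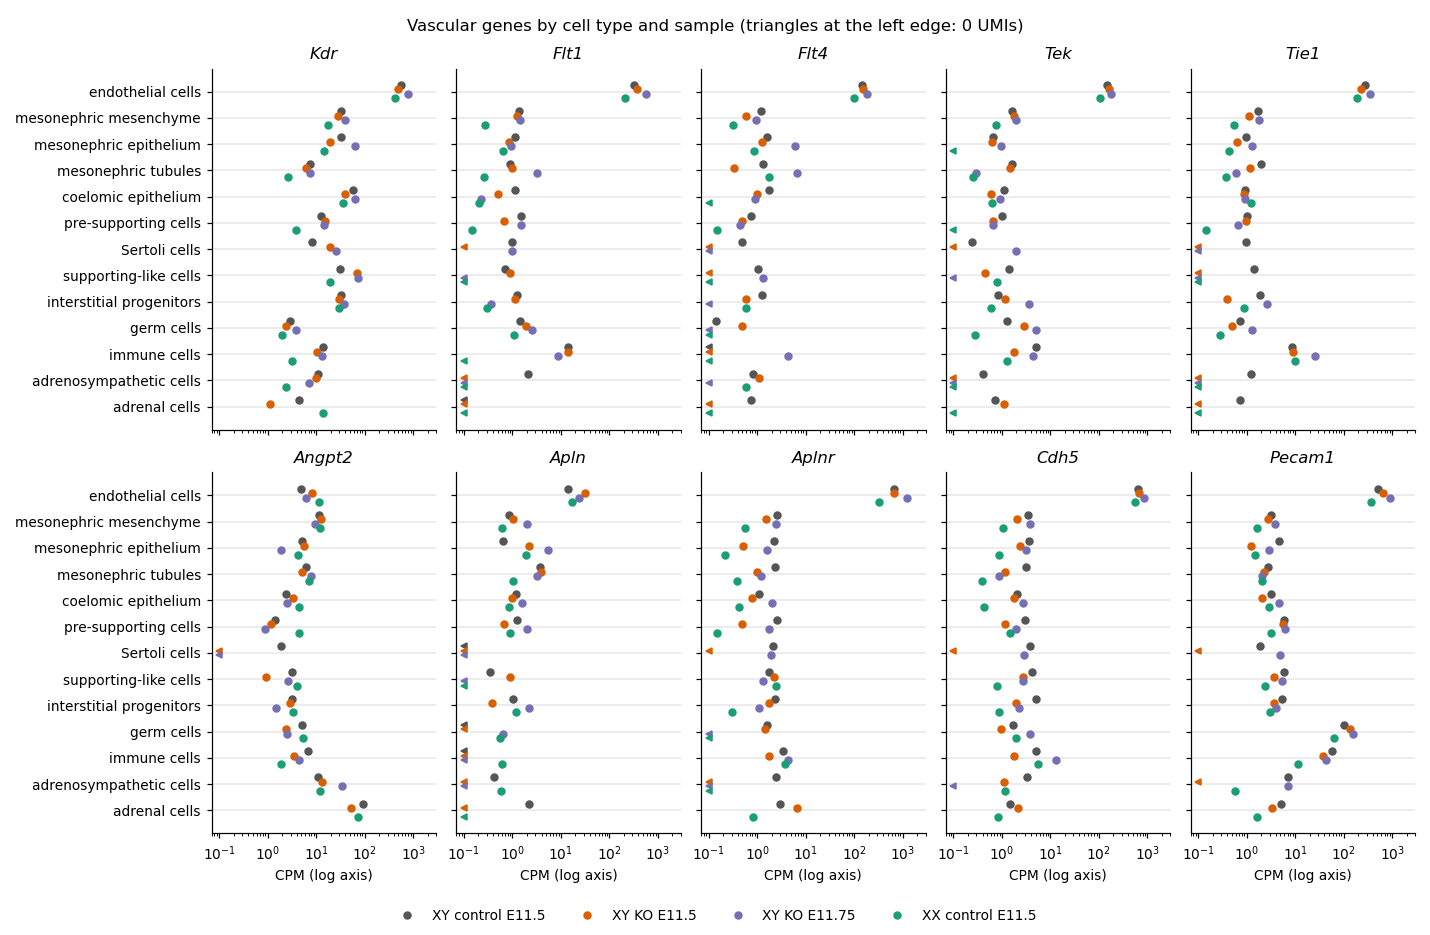
Level of each gene (x axis, CPM, log axis) in the 13 cell types (y axis) of the 4 samples (colours), for types with at least 20 cells; triangles at the left edge mark 0 UMIs. Kdr is spread over several types (57.8 CPM in coelomic epithelium of the XY control), Pecam1 reaches 157 CPM in germ cells and Angpt2 90.8 CPM in adrenal cells.

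Sums over all cells of a sample gave other ratios than the endothelial cells alone. Summed over all cells of a sample, Cdh5 was at 37.3 CPM in the XY control and 26.1 CPM in KO at E11.5, a log2 ratio of -0.52 (-0.59 to -0.44), while within endothelial cells it was 0.05. Tie1 had -0.83 over all cells and -0.31 within endothelial cells, and Aplnr -0.59 and -0.03. At E11.75 Aplnr was at 38.4 CPM over all cells beside 37.4 CPM in the XY control, although its endothelial level was 1.84-fold higher. Such sums mix the number of endothelial cells with the level within them. Endothelial cells gave 5.21% of all UMIs in the XY control, 3.56% in KO at E11.5 and 2.96% in KO at E11.75. The part of this share in the ratios was not tested.

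Endothelial cells with and without an Aplnr UMI differed in other vessel genes. After thinning, 437 cells of the XY control had a UMI of Aplnr and 174 had none, and the counts were 207 and 69 in KO at E11.5, 125 and 18 in KO at E11.75 and 39 and 41 in the XX control. The summed level of 15 arterial genes was 982 CPM in cells with and 2167 CPM in cells without in the XY control, 928 and 2242 CPM in KO at E11.5, 1373 and 3722 CPM in KO at E11.75 and 453 and 943 CPM in the XX control. Venous and lymphatic genes went the other way in the XY control (1256 and 824 CPM), KO at E11.5 (1082 and 734 CPM) and KO at E11.75 (1339 and 667 CPM), and in the XX control their intervals overlapped (778 and 854 CPM).

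The other genes of the set followed this split to different degrees. Cdh5 was at 677 CPM in cells with and 715 CPM in cells without an Aplnr UMI in the XY control, and its intervals overlapped there and in the other 3 samples. Tek was at 162 CPM (141 to 186) with and 102 CPM (76.1 to 133) without in the XY control, and 233 CPM (197 to 275) and 106 CPM (66.6 to 161) in KO at E11.5, on the side of the venous genes. Flt1 was at 346 CPM with and 421 CPM without in the XY control and 372 and 483 CPM in KO at E11.5. Genes of tip cells, the leading cells of a sprout, were higher in cells without an Aplnr UMI in every sample (2513 and 3785 CPM in the XY control, 4092 and 6155 CPM in KO at E11.5). A cell without a UMI at this depth may still express the gene.

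**Figure D5:**
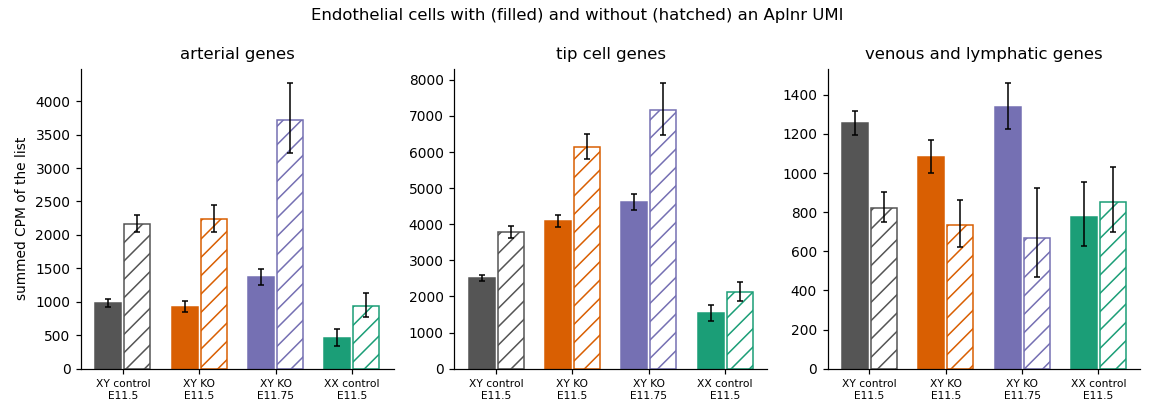
Summed CPM (y axis, linear from 0) of the arterial, tip cell and venous and lymphatic gene lists in endothelial cells with (filled) and without (hatched) an Aplnr UMI after thinning to 3000 UMIs, in the 4 samples (x axis), with 95% counting intervals. Arterial genes are higher in cells without an Aplnr UMI in all 4 samples, from 943 beside 453 CPM in the XX control to 3722 beside 1373 CPM in KO at E11.75. The arterial and tip cell lists share Dll4, Cxcr4 and Unc5b.

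The other genes of these pathways are given from lists by how many passed the same 1.5-fold limit in endothelial cells, beside the shares for all genes given above. Names outside the rule that set the genes to describe were chosen after their values were seen. Angiopoietin and apelin genes here mean genes of the lists so named, and the apelin list holds G protein and arrestin genes with Klf2 and Apela. In KO over XY control at E11.5, 0 of 6 VEGF ligand and co-receptor genes and 0 of 2 angiopoietin genes were past the limit, and 1 of 6 apelin pathway genes, the arrestin gene Arrb2, downward (-1.13). At E11.75 over the XY control, Nrp1 (0.61) and Plxnd1 (0.62), co-receptor genes of the first list, were past it upward, and 0 of 6 apelin genes. Both tested genes of the angiopoietin list, Ptprb (0.82) and Foxo1 (0.71), were also past it upward, and neither encodes an angiopoietin. With TMM factors 0 genes of the first list were past it upward and 1 downward, and 1 angiopoietin gene upward. Ptprb encodes a phosphatase that dampens TIE2.

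Tip cell genes were the list with the most members past the limit upward in KO. At E11.5, 6 of 13 were higher and 0 lower, with a list median of 0.41. At E11.75, 8 of 12 were higher and 1 lower, the gene Lxn, with a median of 0.77, and with TMM factors 6 were higher at E11.5 (2.09% of all genes higher, 3.56% lower) and 5 at E11.75 (5.85% and 15.2%). Between the KO stages (E11.75 over E11.5), 2 of 12 were higher and 3 lower, and with TMM factors 0 and 4. Only Igfbp3, Dll4 and Mcam were past the limit in both KO samples over the XY control with both intervals clear of 0. Igfbp3, which encodes a secreted binding protein of insulin-like growth factors, was at 393 CPM in the XY control, 1112 CPM in KO at E11.5 and 1031 CPM in KO at E11.75, log2 ratios of 1.499 (1.42 to 1.58) and 1.39 (1.29 to 1.49). Dll4, the Notch ligand gene of tip and arterial cells, was at 50.3, 78.9 and 93.0 CPM (0.65 and 0.89), and Mcam, which encodes the adhesion molecule CD146, at 82.4, 131 and 191 CPM (0.67 and 1.22).

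Other lists also held few genes that were past the limit in both KO samples. Of the arterial genes, 1 of 13 was higher and 3 lower at E11.5 (median -0.33) and 5 higher and 1 lower at E11.75 (median 0.42; 2 and 1 with TMM factors), and Gja4, which encodes connexin 37, was lower in both (117, 70.4 and 76.9 CPM in the order XY control, KO at E11.5, KO at E11.75; -0.74 and -0.60). Of 21 endothelial transcription factor genes, 0 were higher and 4 lower at E11.5 and 2 higher and 2 lower at E11.75 (1 and 2 with TMM factors). Among them Etv2, the early factor of the vascular lineage, was at 40.1, 11.84 and 16.1 CPM (-1.74 and -1.28). Prox1, the factor of lymphatic identity, was at 19.7, 6.55 and 3.58 CPM, with log2 ratios of -1.56 (-2.34 to -0.91) and -2.30 (-4.36 to -1.06). The last Prox1 level rests on few UMIs, as 3 UMIs make 2.68 CPM in endothelial cells of KO at E11.75.

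Of 8 venous and lymphatic genes, 0 were higher and 2 lower at E11.5 (Prox1 and Stab2; 1 lower with TMM factors) and 1 lower at E11.75 (Prox1). Of the junction genes, 1 of 16 was higher (Mcam) and 2 lower (Gja4 and Gja5) at E11.5, and 2 of 17 higher (Jam2 and Mcam) and 1 lower (Gja4) at E11.75. Of 27 pan endothelial genes 0 passed the limit at E11.5 (median 0.05) and 7 were higher at E11.75 (median 0.29), or 4 higher and 2 lower with TMM factors.

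In XX over XY control 7 of 13 arterial, 4 of 12 tip cell, 3 of 27 pan endothelial, 3 of 16 junction, 3 of 6 VEGF, 2 of 2 angiopoietin list and 2 of 6 apelin list genes were lower and none higher. Of 21 transcription factor genes 1 was higher (Prox1) and 2 lower, and of 9 venous and lymphatic genes 1 was higher (Prox1) and 1 lower (Stab2). With TMM factors 2 arterial genes and 1 gene each of the tip cell, pan endothelial, junction, VEGF and angiopoietin lists were lower, as were 2 apelin and 2 transcription factor genes, beside 5.90% of all genes. Higher with those factors were 1 pan endothelial, 1 apelin, 2 transcription factor and 1 venous and lymphatic gene, beside 2.66% of all genes.

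The genes whose levels over the 50 sums of a cell type in a sample (at least 20 cells each) were most like the mean of the 10 were Sox17 (Pearson r = 0.96), Bcl6b (0.96), AC138306.1 (0.96), Fam124b (0.96) and Esm1 (0.95), on the scale log2(CPM + 1). The points share libraries and clusters, so r is a description. Cdh5 was most like Sox17 (0.96) and Tie1 most like Icam2 (0.96), and Aplnr most like AC138306.1 (0.95). For Flt1 the gene was Gimap4 (0.95), for Flt4 Gja5 (0.94) and for Tek Bcl6b (0.94).

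The genes with sources outside the vessels had other partners. Kdr was most like Cavin1 (0.88), Ehd2 (0.85) and Filip1 (0.83). Pecam1 was most like Jak3 (0.87), Gm17745 (0.86) and Gbp4 (0.86), Apln like C1qtnf9 (0.86), Zfp366 (0.85) and Acr (0.85), and Angpt2 like Col25a1 (0.80), Dscam (0.76) and Rdx (0.73). Among the members, Kdr and Cdh5 had r = 0.73 and Kdr and Pecam1 0.38.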

How the data were processed

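Single-cell RNA-seq (10x Genomics 3′ v3.1, methanol-fixed cells after trypsin) was made of gonad with mesonephros. The authors aligned reads to mm10 with Cell Ranger 6.1.1, merged the runs of a sample, filtered cells, removed doublets with DoubletFinder and clustered with Seurat, and deposited unnormalized UMI counts for every gene in every cell, with a cell type name per cell. XY cells were held to under 30000 UMIs and 7000 genes, whereas XX cells were filtered by removing low quality clusters. Blood cells were removed from the XY samples at a limit on beta globin transcripts that differed by sample, highest in the XY control and lowest in KO at E11.5. Names, groups and runs came from the labels and the deposited annotation, and the cell types were not rebuilt.

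Python 3.11.15 with numpy 2.4.6, scipy 1.17.1 and pandas 2.3.3 was used, and edgeR 4.0.16 in R 4.3.3 for TMM factors only. UMIs were summed by cell type and sample (37841392 to 105192238 UMIs per sample, 1118227 to 5483986 in endothelial cells), with exact Poisson intervals for CPM, Clopper-Pearson intervals for shares and exact binomial intervals for log2 ratios with a prior count of 0.5. Intervals cover counting error only. A gene needed 100 UMIs in the pair of samples to be counted against the limit of 1.5-fold. For shares of cells, each cell was thinned to 3000 UMIs. As reads were counted at 3′ ends, levels were compared between samples and not between genes. The calculation was tested on simulated data. Alternatives were other scalings, filters, limits and the single runs.

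The members and the gene lists (VEGF ligands and co-receptors, angiopoietin system, apelin system, arterial, venous and lymphatic, tip cell, junctions, transcription factors, pan endothelial) were chosen with earlier results of these data known. The rule for naming list genes was a difference past 1.5-fold in the same direction in both KO samples with intervals clear of 0, and the other list genes named were chosen after their values were seen. Of the lists, Figf and Depp1 had no column of that symbol. Some genes stand in more than 1 list, among them Dll4, Cxcr4, Unc5b, Gja4, Mcam, Prox1, Nrp1 and Pgf, so the counts of different lists are not independent. Likeness was Pearson's r over cell type by sample sums of at least 20 cells, with a pseudocount of 1 CPM. Sites used the longest annotated 3′ UTR of GENCODE on mm10. Proteins were not analysed here.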

Additional observations from a re-analysis of the deposited data

How the results depend on the processing

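No paired analysis was possible because each group is 1 sample. No setting turned the direction of a gene past the limit. Of the genes' log2 ratios under other settings, 359 stayed within the counting interval and 121 did not. In KO over XY control at E11.5 the count past 1.5-fold upward (1) became 0 with cells thinned to 3000 UMIs, 0 without cells that held immune or platelet UMIs and 0 with at least 500 UMIs, since Apln then held too few UMIs to be tested, and 2 with no minimum, where Angpt2 was added. In KO at E11.75 over XY control (4) it became 2 with TMM factors, 2 with centring by 3′ UTR length and 0 at 2-fold. In XX over XY control the count upward (0) became 1 with XY limits on cells, where Apln was added at 1.08. It became 1 with no minimum, and single runs left out gave 0 to 1. The count downward (2) became 1 with TMM factors (5.90% of all genes, beside 11.6% without them), 1 with median-of-ratios factors (4.47%), 1 with 3′ UTR centring (4.499%), 1 at 2-fold (1.29%), 4 with XY limits on cells (14.5%), 6 with the mean CPM over cells (26.8%), 7 with thinning (17.7%) and 7 without immune or platelet UMIs (22.1%), and runs left out gave 2 to 6. In KO at E11.75 over KO at E11.5 the count upward (4) became 1 with TMM factors, 1 with median-of-ratios factors, 1 with 3′ UTR centring, 2 without mitochondrial, ribosomal and globin genes and Gm42418 in the total, 2 with thinning and 0 at 2-fold, and runs left out gave 3 to 3, while the count downward (0) became 1 with each of the first 3 settings. The endothelial share of KO at E11.75 was 2.36% among cells with at least 3000 UMIs (XX control 2.22%), and that of the XY control 3.07% to 4.35% with runs left out. Of the counts of list genes with no minimum or TMM factors, 91 stayed within 1.5 times and 53 did not. Where not stated, the cause was not tested. The limits are 1 sample per group, 98 to 875 endothelial cells, and few UMIs of Apln and Angpt2.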
